A study of Mus musculus with 24 samples.

Results

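The 8 genes described here link cellular energy and NAD to the circadian clock. They are the 6 genes Prkaa1, Prkaa2, Prkab1, Prkab2, Prkag1 and Prkag2 of the AMP-activated protein kinase (AMPK), together with Nampt and Sirt1. They were picked out by their platform symbols, with no threshold on a measured value. All 8 were measured, each by 1 probe set, among 19938 genes in all. All 8 also lay above the filter on dim genes, which kept 13956 genes for testing.

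AMPK is a heterotrimer of a catalytic alpha subunit, a scaffolding beta subunit and a gamma subunit that senses AMP and ADP against ATP. When energy is short it phosphorylates metabolic enzymes, and in other mouse tissues it also phosphorylates the clock repressor CRY1 and marks it for degradation. NAMPT is the rate-limiting enzyme that rebuilds NAD from nicotinamide, and in mouse liver its transcript is driven by CLOCK and BMAL1. SIRT1 consumes that NAD to deacetylate proteins, among them BMAL1 and PER2.

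The tissue was the suprachiasmatic nucleus (SCN), which paces daily rhythms from the hypothalamus, taken from C57/BL6 mice. The animals were entrained to light and dark for 3 weeks and then kept in complete darkness. Collection ran at 2 h steps, the earliest at CT 18 and the latest at CT 64 (CT, circadian time). RNA of 3 mice was pooled for each of the 24 arrays. The second cycle, CT 42 to CT 64, and the first cycle, CT 18 to CT 40, have 12 arrays each at the same 12 circadian times. No time had a replicate array, so the spread around a fitted curve was the error and the number of arrays limits the precision.

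All 12 SCN markers, among them the neuropeptide genes Avp and Vip, lay above the filter, which kept 13956 of 19938 genes. All 8 astrocyte markers, all 7 measured oligodendrocyte markers and 4 of 7 measured anterior pituitary markers also passed. Passing the filter thus does not single out SCN tissue. Also above it were 7 of 8 measured markers of neighbouring hypothalamic nuclei. The brightest of these was Oxt (mean log2 11.85), and the brightest SCN marker was Avp (10.97). The arrays at CT 40, CT 62 and CT 64 stood apart. The interquartile range of log2 values was 2.48, 2.67 and 2.65 on these, whereas the other 21 spanned 2.72 to 2.90. Olfactory and vomeronasal receptor genes, 1194 transcripts used as a measure of array background, averaged 0.34, 0.19 and 0.16 above their series mean on these 3 arrays. On the other arrays they lay between -0.15 and 0.04. Markers of the anterior pituitary were uneven, with a list mean of 5.08 to 7.89 over the arrays and the highest value at CT 20. Of the 8 genes, 6 had their lowest value at CT 40, as did 29.6% of all genes tested. The 24-h results of all 8 genes are therefore given with and without these 3 arrays.

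The sequences upstream of 3 of these genes are shown because Prkaa2 was called rhythmic, while Sirt1 and Nampt, the NAD pair, were not. They are the 250 bases before the annotated start, from RefSeq on GRCm38.p6, written 5′ to 3′ on the gene's own strand. The windows lie at chr4:105109899-105110148 (minus strand) for Prkaa2, chr10:63339036-63339285 (minus strand) for Sirt1 and chr12:32820085-32820334 (plus strand) for Nampt. Capitals mark the motifs found on either strand.
Prkaa2: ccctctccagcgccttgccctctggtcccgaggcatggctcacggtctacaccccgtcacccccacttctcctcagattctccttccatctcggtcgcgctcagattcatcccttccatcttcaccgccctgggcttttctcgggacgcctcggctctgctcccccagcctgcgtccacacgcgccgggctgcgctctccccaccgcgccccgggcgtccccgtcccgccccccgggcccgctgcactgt
Sirt1: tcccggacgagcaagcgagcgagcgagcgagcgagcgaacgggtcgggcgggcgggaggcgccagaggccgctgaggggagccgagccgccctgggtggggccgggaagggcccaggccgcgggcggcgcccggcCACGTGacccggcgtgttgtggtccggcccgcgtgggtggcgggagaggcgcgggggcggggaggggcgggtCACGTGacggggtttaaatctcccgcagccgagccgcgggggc
Nampt: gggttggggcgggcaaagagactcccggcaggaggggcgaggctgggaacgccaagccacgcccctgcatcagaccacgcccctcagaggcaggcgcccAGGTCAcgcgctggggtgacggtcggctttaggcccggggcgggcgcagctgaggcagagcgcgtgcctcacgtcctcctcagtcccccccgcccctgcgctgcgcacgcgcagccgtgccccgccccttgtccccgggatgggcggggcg

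The motifs searched were the E-box CACGTG, the related CACGTT, the D-box as TTATGTAA or TTACGTAA, the half-site AGGTCA of ROR and REV-ERB receptors, and the cAMP response element TGACGTCA. The E-box was present at 2 places in the Sirt1 window, starting 115 and 43 bases before the start. Of the 32851 windows in the table, 6.02% held an E-box and 0.429% held 2 or more. The Sirt1 window was 79.2% G or C, against a median of 52.4% over all windows, and these shares were not matched for that. The Nampt window held AGGTCA, 151 bases before the start, as did 4607 of the 32851 windows. None of the 6 motif spellings was found in the Prkaa2 window. The other 5 genes had 7 windows, 3 of them for Prkag2, and the only match was an AGGTCA 43 bases before 1 start of Prkag2. A match is a description of these letters, not a binding site, and a window without a match says only that the letters are not in it.

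Among the 8 genes, Prkaa2, which encodes the catalytic alpha 2 subunit, was the only one called rhythmic over 24 h on all arrays. Its lowest log2 intensity was 7.05, at CT 64, its median was 7.63 and its highest value was 7.98, at CT 52. At circadian time 16 it measured 7.05 in the second cycle and 7.07 in the first cycle, the 2 lowest values of all 24 arrays. At circadian time 8 it measured 7.86 in both cycles. The low point at circadian time 16 thus recurred in both cycles, and both arrays that show it are among the 3 that stood apart. At circadian time 4 the cycles differed, with 7.98 in the second cycle and 7.54 in the first cycle.

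The cosine fit gave Prkaa2 an amplitude (log2 units, mean to peak) of 0.22 ± 0.05 (SE, 24 arrays) with a peak at 5.91 ± 0.81 h. This is a 1.36-fold difference between trough and peak (limma moderated F test, adjusted p = 0.0132). Its amplitude exceeded that of 98% of the genes tested. In the same fit 7.65% of the 13956 genes were called, so 1 of 8 is close to the background share. At an unadjusted p under 0.05 there were 2 of the 8, Prkaa2 and Prkag2, against 27.5% of all genes. On all 24 arrays the peak fell between those of Nr1d1, a clock repressor, and Dbp, an output activator (3.89 and 7.29 h). Per2 peaked at 9.53 h and Arntl at 21.8 h. The Prkaa2 peak moved with the setting, to 7.59 h with the array background as a covariate and 5.53 h with oligodendrocyte markers.

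Prkaa2 remained called in all 24 fits that left out 1 array, with amplitudes of 0.19 to 0.24 and adjusted p of 0.00901 to 0.0287. Without CT 40, CT 62 and CT 64 its amplitude was 0.15, with a peak at 7.20 h (adjusted p = 0.0319). Neuron markers were also low on the 2 arrays where Prkaa2 was lowest. The mean over 7 of them was 9.82 at CT 64 and 9.82 at CT 40, the 2 lowest of 24, against a median of 10.1. They did not follow Prkaa2 on every array. At CT 50 the neuron marker mean was at its highest, 10.27, while Prkaa2 measured 7.60, below its median of 7.63. With that mean as a covariate, an alternative chosen after seeing the data, the amplitude of Prkaa2 was 0.15, the peak lay at 8.39 h and the call was lost (adjusted p = 0.190). The same covariate left 147 genes called over the whole table. The mean of the SCN markers, a list that holds clock genes such as Rora, was also lowest at CT 64 (7.70, median 8.26). With it Prkaa2 stayed called (amplitude 0.15, adjusted p = 0.0411). In a bulk sample, fewer cells of a type and less RNA per cell cannot be told apart. The arrays at CT 40 and CT 64 also had a raised background, 0.34 and 0.16 above its series mean. Whether that lowered these marker means was not tested.

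**Figure D1:**
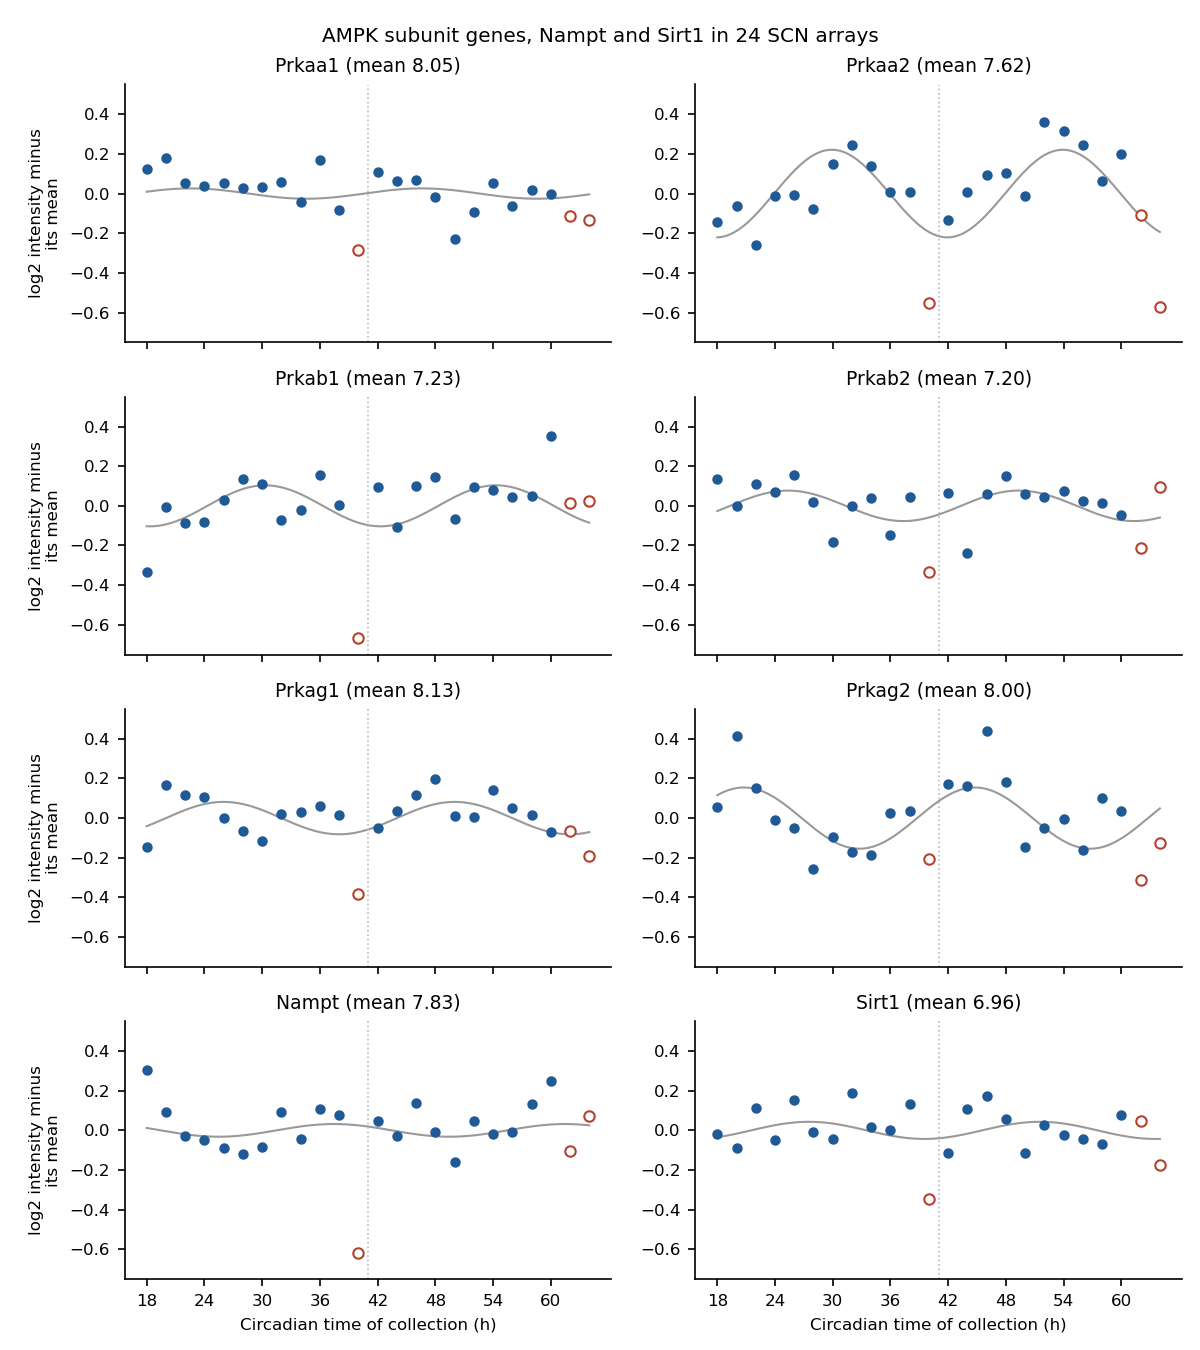
Log2 intensity of each of the 8 genes minus its mean over 24 arrays (vertical axis) against circadian time of collection in h (horizontal axis). Points are arrays, open red circles are the arrays at CT 40, CT 62 and CT 64, grey lines are the fitted 24-h cosines and the dotted line separates the cycles. Prkaa2 is lowest at CT 64 and CT 40, at 7.05 and 7.07 before the mean is subtracted, and 6 of the 8 genes have their lowest point at CT 40.

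Prkaa1 encodes the other catalytic subunit, alpha 1, and showed no such course. It measured 7.76 at its lowest (CT 40), 8.08 at the median and 8.23 at its highest (CT 20). Its fitted amplitude was 0.03 ± 0.03 (adjusted p = 0.839), and the 95% confidence region reached an amplitude of 0.11, or 1.17-fold from trough to peak. Its estimated peak was at 22.6 h. On the 21 arrays that exclude CT 40, CT 62 and CT 64 its amplitude was 0.06 with a peak at 17.1 h, again not called (adjusted p = 0.355). On 24 arrays the region for Prkaa2 ran from 0.10 to 0.34.

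The difference between the paralogs was tested within arrays, as Prkaa2 minus Prkaa1 in log2 units, which removes what the 2 genes share on an array. This difference had a 24-h amplitude of 0.23 and was largest at 6.32 h (permutation test over 24 times, 100000 resamples, p = 0.00027). Over the 3 paralog pairs compared, the Benjamini-Hochberg adjusted value was 0.00081. On the 21 arrays that exclude CT 40, CT 62 and CT 64 the amplitude was 0.21 (adjusted permutation p = 0.00526). With the neuron marker mean as a covariate it was 0.17 (adjusted permutation p = 0.00504). The 2 catalytic transcripts therefore differed in their course over the day in each of these settings.

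The beta subunits scaffold the complex and bind glycogen. Prkab1 measured 6.56 at its lowest (CT 40), 7.26 at the median and 7.58 at its highest (CT 60). Prkab2 measured 6.87 at its lowest (CT 40), 7.24 at the median and 7.36 at its highest (CT 26). The array at CT 40 differed from the median by -0.70 log2 units for Prkab1 and by -0.38 for Prkab2. At CT 64 the differences were -0.0027 and 0.05. Neither was called rhythmic. Prkab1 peaked at 6.32 h with an amplitude of 0.10 ± 0.05 (adjusted p = 0.299) and a 95% region up to 0.23. Prkab2 had 0.08 ± 0.04 with a peak at 1.34 h (adjusted p = 0.282) and a region up to 0.17. Both values depended on the arrays that stood apart. With CT 40 alone left out, Prkab1 had 0.07 and a peak at 8.23 h (adjusted p = 0.395), and with CT 40, CT 62 and CT 64 left out 0.07 and 8.18 h (adjusted p = 0.437). Prkab2 had 0.05 and a peak at 0.217 h with these 3 left out (adjusted p = 0.537). Their within-array difference, Prkab2 minus Prkab1, had an amplitude of 0.11 (permutation p = 0.139, also 0.139 adjusted over 3 pairs), and 0.10 with the 3 arrays left out (adjusted permutation p = 0.236).

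The gamma subunits hold the sites that bind AMP and ATP. Prkag2 measured 7.69 at its lowest (CT 62), 7.99 at the median and 8.44 at its highest (CT 46). It was high late in the subjective night, at circadian time 20 with 8.16 in the second cycle and 8.41 in the first cycle, and at circadian time 22 with 8.44 in the second cycle and 8.15 in the first cycle. At circadian time 8 it measured 7.84 in the second cycle and 7.83 in the first cycle. The values at 20 and 22 h lay above those at 8 h in both cycles.

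On all arrays Prkag2 was not called: its amplitude was 0.15 ± 0.04, or 1.24-fold from trough to peak, and its estimated peak lay at 20.8 ± 1.09 h (adjusted p = 0.0643). The call depended on the setting. Without CT 40, CT 62 and CT 64 its amplitude was 0.19 with a peak at 18.9 h and it was called (adjusted p = 0.0105). It was also called when only CT 40 (adjusted p = 0.0395) or only CT 58 (adjusted p = 0.0399) was left out. Counting the fit without CT 40, CT 62 and CT 64, 5 of 13 other settings called it (adjusted p from 0.00147 to 0.165 over the 13). The rest of the 5 were quantile normalisation, array weights, the array background covariate and the oligodendrocyte marker covariate.

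Prkag1, the other gamma gene measured above the filter, had 7.75 at its lowest (CT 40), 8.15 at the median and 8.33 at its highest (CT 48). Its amplitude was 0.08 ± 0.03 with a peak at 2.00 h (adjusted p = 0.226), with a 95% region up to 0.17. With the mean of oligodendrocyte markers as a covariate its amplitude was 0.11 and it was called (adjusted p = 0.0189), the only one of 13 other settings to call it. In that fit 3496 genes were called. Its amplitude was lower elsewhere: 0.01 with the array background as a covariate (adjusted p = 0.949), 0.01 with the astrocyte markers, added after seeing the data (adjusted p = 0.965), and 0.04 with CT 40, CT 62 and CT 64 left out (adjusted p = 0.572). The within-array difference, Prkag2 minus Prkag1, had an amplitude of 0.16 and was largest at 18.8 h (permutation p = 0.00112, adjusted over 3 pairs 0.00168). With CT 40, CT 62 and CT 64 left out it was 0.18 (adjusted permutation p = 0.00144). Prkag3, the gamma gene known from skeletal muscle, averaged 5.26, below the filter at 5.52, and was not tested.

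**Figure D2:**
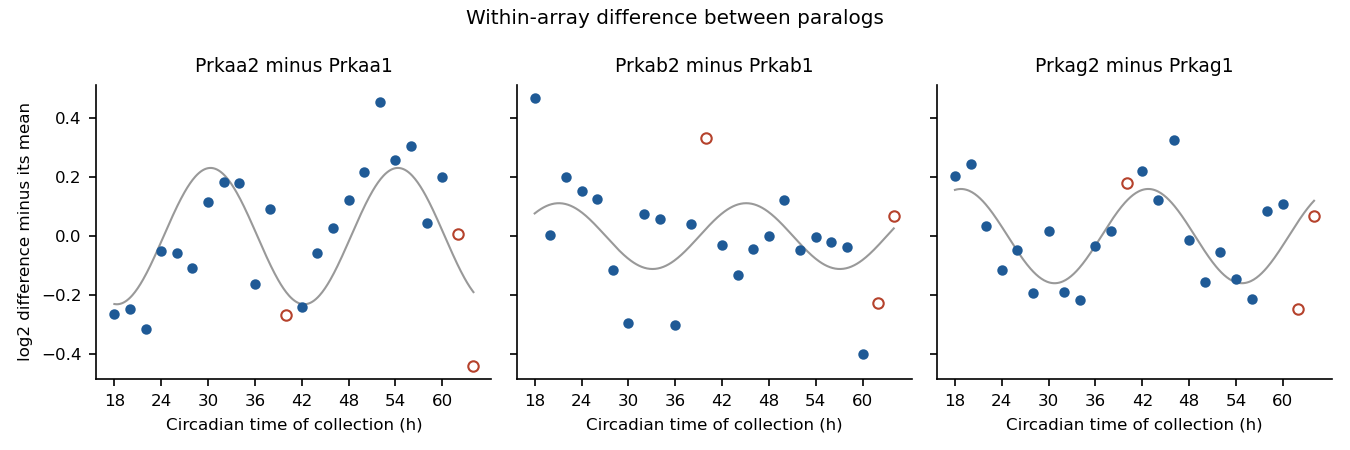
Within-array log2 difference between paralogs minus its mean (vertical axis) against circadian time of collection in h (horizontal axis), for the alpha, beta and gamma pairs. Points are arrays, open red circles are CT 40, CT 62 and CT 64, and grey lines are fitted 24-h cosines. The fitted amplitudes are 0.23, 0.11 and 0.16, and the alpha and gamma differences are largest at 6.32 h and 18.8 h.

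Nampt, the NAD salvage gene, was not called rhythmic over 24 h on all arrays. It measured 7.21 at its lowest (CT 40), 7.82 at the median and 8.13 at its highest (CT 18). At circadian time 16 the cycles disagreed, with 7.90 in the second cycle and 7.21 in the first cycle. Its amplitude was 0.03 ± 0.05 (adjusted p = 0.873), and the 95% region reached 0.16, or 1.24-fold from trough to peak. This value rested on the array at CT 40: without it the amplitude was 0.09 with a peak at 15.1 h (adjusted p = 0.140). Without CT 40, CT 62 and CT 64 it was 0.12 and missed the threshold (adjusted p = 0.0539), with a 95% region from 0.04 to 0.20. On all arrays the amplitude was 0.15 with the array background as a covariate (adjusted p = 0.0569). With the oligodendrocyte markers it was 0.01 (adjusted p = 0.974).

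Sirt1, the NAD-dependent deacetylase, measured 6.61 at its lowest (CT 40), 6.95 at the median and 7.14 at its highest (CT 32). Its amplitude was 0.04 ± 0.04 (adjusted p = 0.645), with a 95% region up to 0.13, or 1.21-fold. With CT 40 alone left out the amplitude was 0.02 (adjusted p = 0.935). When CT 40, CT 62 and CT 64 were left out the amplitude was 0.01 (adjusted p = 0.985). Sirt1, whose window shown above held 2 E-boxes, was not called rhythmic. The window of Prkaa2, which was called, held none of the motifs. Whether such motifs go with rhythm was not tested, and only the 250 bases of each window were searched.

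**Figure D3:**
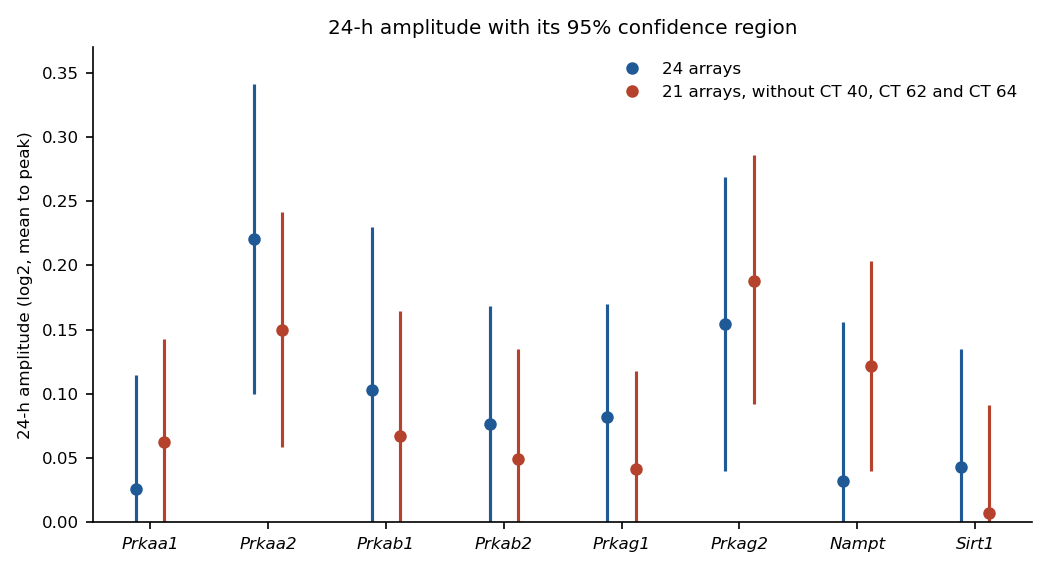
Fitted 24-h amplitude in log2 units from mean to peak (vertical axis) of each gene, on 24 arrays (blue) and on 21 arrays without CT 40, CT 62 and CT 64 (red). Bars are 95% confidence regions and start at 0 where the region holds 0. Prkaa2 has the highest amplitude on 24 arrays, 0.22, and Prkag2 on 21 arrays, 0.19, while Nampt has 0.03 on 24 arrays and 0.12 on 21.

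Over the 8 genes the median amplitude was 0.08, against 0.07 over all 13956 genes tested. With the 12 circadian times ordered by the mean level of both cycles, each gene had 11 steps between neighbours in level. For Prkaa2, 10 of 11 steps were smaller than the pooled SD between cycles of 0.13. The exception was the step of 0.42 between the lowest time, 16 h, and the next lowest. For Prkaa1, Prkab1, Prkag1 and Sirt1 it was also 10 of 11. Their exceptions were again the step just above 16 h, of 0.11, 0.20, 0.19 and 0.19. The lowest time was 16 h for every gene except Prkag2, and both arrays at 16 h are among those that stood apart. For Nampt and Prkab2, 11 of 11 steps lay within their pooled SD of 0.17 and 0.13. The largest step of Prkag2, 0.17, separated circadian times 20 and 22 from the rest and exceeded its pooled SD of 0.14.

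The second comparison set the second cycle against the first. None of the 8 genes was called, and limma called 0 of 13956 genes (0%, with 8.71% at an unadjusted p under 0.05). The largest difference was that of Prkab1, which averaged 7.30 ± 0.11 in the second cycle and 7.16 ± 0.23 in the first cycle (SD, n = 12 each). The fitted difference, second minus first, was 0.14 ± 0.07 (unadjusted p = 0.0433 and limma adjusted p = 0.563), and the gene was higher at 8 of 12 circadian times. Without the array at CT 40 this difference was 0.09. Prkaa2 averaged 7.67 ± 0.25 in the second cycle and 7.57 ± 0.21 in the first cycle, a difference of 0.09 ± 0.06 (limma adjusted p = 0.681). The other 6 differences lay between -0.06 and 0.06. With CT 40, CT 62 and CT 64 left out, the difference was 0.09 for Prkab1 (limma adjusted p = 0.504), 0.12 for Prkaa2 (0.302) and -0.06 to 0.09 for the other 6, none of them called.

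Whether the rhythm itself changed was tested as an interaction, and limma called 0 of the 8 genes and 0 of 13956 (0%, with 2.42% at an unadjusted p under 0.05, and 0 of the 8). Fitted alone, the second cycle gave Prkaa2 a peak at 5.09 ± 0.93 h and an amplitude of 0.26 ± 0.06, and the first cycle a peak at 6.96 ± 1.18 h and an amplitude of 0.20 ± 0.06. The interaction for Prkaa2 had an amplitude of 0.12 ± 0.09 (limma unadjusted p = 0.424). Prkag2 had 0.15 ± 0.06 at 21.9 h in the second cycle and 0.17 ± 0.06 at 19.7 h in the first cycle (limma interaction, unadjusted p = 0.605). The peaks of both genes lay within 3 h between cycles.

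**Figure D4:**
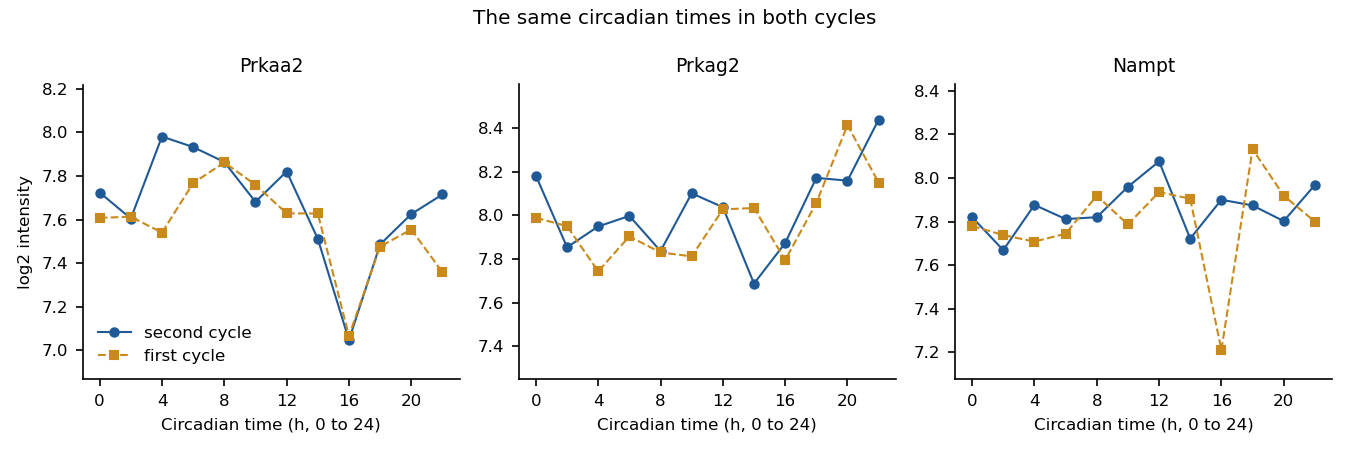
Log2 intensity (vertical axis) of Prkaa2, Prkag2 and Nampt at the 12 circadian times in h (horizontal axis), for the second cycle (blue circles) and the first cycle (orange squares). Each point is 1 array. Prkaa2 drops to 7.05 in the second cycle and 7.07 in the first cycle at circadian time 16, where Nampt is 7.90 in the second cycle and 7.21 in the first cycle.

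A 12-h component was called in 0 of the 8 genes and in 5 of 13956 (0.0358%). At an unadjusted p under 0.05 there were 3 of the 8, against 21.9% of all genes. These were Prkag2 with an amplitude of 0.14 ± 0.04 (adjusted p = 0.125), Prkag1 with 0.11 ± 0.03 (0.119) and Prkaa1 with 0.09 ± 0.03 (0.189). Without CT 40, CT 62 and CT 64 these amplitudes were 0.08, 0.08 and 0.05 (adjusted p = 0.605, 0.461 and 0.677).

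The genes most like each member were sought by Pearson's r of log2 values over the 24 arrays. Array background and marker levels differed between these arrays, and r was not adjusted for them. The closest genes are given as a description, with r first for all 24 arrays and then for the 21 without CT 40, CT 62 and CT 64. For Prkaa2 they were Rora, a nuclear receptor that activates Arntl (r = 0.867 and 0.781), Slc2a13, a myo-inositol transporter (0.859 and 0.790), and the transcription factor Stat5b (0.859 and 0.744). Rora and Slc2a13 were themselves called, with peaks at 5.94 h and 6.77 h. For Prkag2 they were the cell cycle regulator Rb1 (r = 0.861 and 0.862), the integrin subunit Itgb1 (0.827 and 0.783) and Trmt9b (0.814 and 0.887). Rb1 and Trmt9b were themselves called (limma adjusted p = 0.0434 and 0.000787).

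For the other members, r was lower on the 21 arrays for 17 of the 18 closest genes. For Prkag1 the closest genes were Tbc1d20, Nisch and Mapk8ip1, with r of 0.894 to 0.913 on 24 arrays and 0.752 to 0.801 on 21. For Nampt they were Dram2, Ciao2a and Map4k5, with 0.856 to 0.886 on 24 arrays and 0.627 to 0.681 on 21. For Prkab1 they were Rps28, Sh3bgrl3 and Fam168a, with 0.819 to 0.842 and 0.520 to 0.657. For Prkaa1 they were Clcc1, Mpped2 and Eogt, with 0.804 to 0.837 and 0.663 to 0.722. For Sirt1 they were Bmt2, Atf6 and Rtl5, with 0.794 to 0.822 and 0.655 to 0.675. For Prkab2 they were Tead1, Relch and Mblac2, with 0.786 to 0.850 and 0.757 to 0.796. None of these 18 genes was called rhythmic over 24 h.

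Genes around AMPK were counted by list, beside backgrounds over all genes of 7.65% called and 27.5% at an unadjusted p under 0.05. Of 11 tested kinases and partners that act upstream of AMPK, limma called 0, with 3 at an unadjusted p under 0.05. The smallest p were those of Flcn, a regulator of AMPK signalling (amplitude 0.11, peak 11.1 h, adjusted p = 0.114), and Strada, a partner of the upstream kinase LKB1 (0.10, 4.24 h, adjusted p = 0.135). Of 16 AMPK substrates 2 were called, with 9 at an unadjusted p under 0.05 and a median amplitude of 0.10. Cry1, the clock repressor, peaked at 10.3 h with an amplitude of 0.19 ± 0.04 (adjusted p = 0.0164). Gabbr2, a GABA-B receptor subunit, had 0.20 ± 0.05 and peaked at 3.25 h (adjusted p = 0.0356), but 0.10 without CT 40, CT 62 and CT 64 (adjusted p = 0.171).

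Of 11 tested kinases related to AMPK 2 were called, with 4 at an unadjusted p under 0.05 and a median amplitude of 0.08. Both encode salt-inducible kinases, which restrain CREB co-activators. Sik1 peaked at 4.28 h with an amplitude of 0.38 ± 0.03 (adjusted p = 3.00e-07). Sik3 had 0.16 ± 0.04 with a peak at 4.94 h (adjusted p = 0.0274). Both remained called without CT 40, CT 62 and CT 64 (adjusted p = 1.33e-05 and 0.0414). On all arrays, without a covariate, their peaks lay within 2 h of that of Prkaa2.

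On the NAD side, limma called 0 of 11 tested genes of NAD synthesis, with 1 at an unadjusted p under 0.05. Nmnat2, a neuronal enzyme that makes NAD from the product of NAMPT, had an amplitude of 0.11 at 2.61 h (adjusted p = 0.103), and Nadsyn1, the NAD synthetase, had 0.08 at 13.4 h (adjusted p = 0.221). Of 5 NAD-consuming enzymes limma called 0, with 0 at an unadjusted p under 0.05. The smallest p were those of Tnks (amplitude 0.09, adjusted p = 0.220) and Parp1 (0.03, adjusted p = 0.681). Tnks2, singled out after its values were seen, was called only without CT 40, CT 62 and CT 64 (amplitude 0.10, adjusted p = 0.0410, against 0.02 and 0.924 on all arrays).

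Of the 6 other sirtuin genes 1 was called, the same 1 that had an unadjusted p under 0.05. Sirt3, the mitochondrial deacetylase, peaked at 1.54 h with an amplitude of 0.11 ± 0.03 (adjusted p = 0.0477), and was not called without CT 40, CT 62 and CT 64 (adjusted p = 0.140). Of 9 substrates and partners of SIRT1 2 were called, the clock genes Per2 (amplitude 0.45 ± 0.03) and Arntl (0.17 ± 0.04), with 4 at an unadjusted p under 0.05. The shares called in these lists stand beside the backgrounds of 7.65% called and 27.5% at an unadjusted p under 0.05. The lists hold 5 to 16 tested genes each, and none was tested against those backgrounds.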

How the data were processed

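Values were used as deposited, on the log2 scale, after the authors' RMA normalisation (version 1.3.1.187, in Affymetrix Expression Console, per the submitters' processing notes). Background settings and genome build are not given in the sources used here. Of 35556 probe sets, 21789 had 1 symbol, and these gave 19938 genes, where the brightest probe set on average stood for a gene that had several. Genes below the 30th percentile of the mean (log2 5.52) were left out.

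Fits used limma 3.58.1 in R 4.3.3 over 13956 genes, with eBayes and Benjamini-Hochberg adjustment over all of them, at a threshold of 0.05. Time entered as 24-h cosine and sine terms. Further fits added a cycle term, its interaction with the 24-h terms, or 12-h terms. Paralog differences were tested by 100000 permutations of the times. The fits were tested on simulated data. Figures used Python 3.11.15 and matplotlib 3.10.9. All 8 members are named, with up to 4 called genes per pathway list or the 2 of smallest p, and the 3 genes of highest r per member. Members and lists were chosen with earlier results of these data known. Alternatives covered filter, probe sets, normalisation, weights, prior, covariates, threshold, ranks, period and omitted arrays. No other normalisation was applied in the main fits. Quantile normalisation and median centring were used only as alternatives.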

Additional observations from a re-analysis of the deposited data

How the results depend on the processing

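The 24-h call of Prkaa2 held in 13 other settings, with the astrocyte or SCN marker covariate and in all 24 fits without 1 array. It was lost at a threshold of 0.01 and with the neuron marker covariate. At its best-fitting period between 20 and 28 h, 22.3 h, Prkaa2 was also called. That period was picked on the same arrays with no adjustment for the search, so this fit is no separate check. Brackets give the count over all 13956 genes in the same setting, against 1067 in the main fit. The number of the 8 genes called was 2 with quantile normalisation (1024), array weights (1570) and the array background covariate (534). It was also 2 with the astrocyte (795) or SCN (418) marker covariate, and without CT 40, CT 62 and CT 64 (679). The second gene was Prkag2 each time. The number was 3 with the oligodendrocyte covariate (3496) and 1 to 2 when single arrays were left out (704 to 1440). It was 0, with 2 at an unadjusted p under 0.05, with the neuron marker covariate (147) or at the 0.01 threshold (170). The neuron, astrocyte and SCN marker covariates were chosen after seeing the data.

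Over all genes, 1067 were called rhythmic over 24 h. The count was 534 with the array background covariate, 3496 with the oligodendrocyte covariate, 679 without the 3 arrays, 170 at 0.01, 147 and 418 with the neuron and SCN marker covariates, and 704 (without CT 28) to 1440 (without CT 30) when single arrays were left out. The 12-h count of 5 became 8 with the 50th percentile filter, array weights or a trended prior, 11 with median centring, 2 with quantile normalisation, 0 in the other settings where it moved, and 0 to 9 without single arrays. The cycle change was called in 66 genes with the background covariate, 5 with array weights and 0 to 1 without single arrays, none of them among the 8. Paired by circadian time, with the 12 times as a block, limma called it in 0 genes, with 1461 at an unadjusted p under 0.05 (Prkab1 0.14, adjusted p = 0.433). At each gene's best period between 20 and 28 h Prkag2 was called (limma adjusted p = 0.0453). Its best period was 28 h, the upper search limit itself. The period was picked on the same arrays, and the p value was not adjusted for that search. For all 8 genes the 95% range of the period reached a search limit. The cause of these changes was not tested.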
